A study of Caenorhabditis elegans with 8 samples.

Results

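The insulin-like peptide genes of Caenorhabditis elegans were followed in whole young adult worms of 2 genotypes on 2 bacterial foods. The members were the rows of the deposited expression table named ins- and a number, together with daf-28. These were 40 of 41560 rows, and 31 of the 40 counted as measured, meaning at least 1 FPKM (fragments mapped to a transcript, scaled to its length and to the size of the library) in at least 2 of the 8 libraries. The 4 groups, with 2 libraries each, were daf-16(mgDf50) mutants on E. coli lacking hns, daf-16(mgDf50) mutants on the parent strain BW25113, wild-type N2 worms on E. coli lacking hns, and wild-type N2 worms on BW25113. H-NS, the product of hns, is a bacterial DNA-binding protein that represses many genes, and hns food here means the deletion strain of BW25113. The labels do not say if duplicate libraries were made from different worm cultures. Every p-value here therefore rests on the spread between duplicates, which may be technical.

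Insulin-like peptides are small secreted hormones that bind the insulin and IGF receptor homologue DAF-2. Peptides that activate the receptor, such as DAF-28, INS-4, INS-6 and INS-7, lead through the kinases AGE-1, AKT-1 and AKT-2 to retention of the FOXO transcription factor DAF-16 in the cytoplasm. Peptides that oppose the receptor, such as INS-1, INS-17 and INS-18, favour DAF-16 activity and dauer arrest. Most of the genes are expressed in small sets of neurons and some also in the intestine, where ins-7 is known as a gene that DAF-16 represses. The comparisons ask which peptide transcripts differ with the bacterial food and which differ when DAF-16 is lost.

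The genotypes were checked on daf-16 itself, which stood at 17.7 and 15.8 FPKM in daf-16 mutants on hns food and 19.2 and 18.3 FPKM in daf-16 mutants on BW25113, against 75.6 and 69.9 FPKM in wild type on hns food and 77.1 and 77.4 FPKM in wild type on BW25113. The libraries held an implied 24100000 to 26600000 fragments, estimated from the steps between low values. All 12 neuron markers, all 8 body wall muscle markers and all 8 germline markers passed the 1 FPKM minimum. Of 10 listed intestine markers 9 were matched by name, and all 9 passed it. Among 10 ciliated sensory neuron markers 5 did not, namely che-2, che-3, tax-4, tax-2 and daf-11. In whole worms, fewer cells of a type and less RNA per cell cannot be told apart. Replicate 1 of wild type on hns food stood apart from the other libraries for the peptide genes. It held the highest value of the 8 libraries for 12 of 31 measured members (23.3% of all tested genes were highest there).

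Insulin-like peptide transcripts were a small part of these transcriptomes. Summed over all 40 rows they came to 303 and 290 FPKM in daf-16 mutants on hns food, 275 and 311 FPKM in daf-16 mutants on BW25113, 424 and 306 FPKM in wild type on hns food and 287 and 317 FPKM in wild type on BW25113. These sums were 0.0116% to 0.0199% of all FPKM in a library. Apart from replicate 1 of wild type on hns food, at 424 FPKM, the libraries lay between 275 and 317 FPKM. On hns food both daf-16 mutant sums lay below both wild-type sums, with the nearest, 303 and 306 FPKM, nearly equal. In the other comparisons of food or genotype the groups overlapped. Between 26 and 30 members reached 1 FPKM in a library.

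A few members carried much of the family's transcript. The receptor agonist gene ins-7 had the highest mean over the 8 libraries, 34.8 FPKM, followed by ins-34 at 32.5 FPKM, ins-28 at 28.5 FPKM, ins-22 at 27.3 FPKM and ins-27 at 19.4 FPKM. These 5 genes gave 39.7% to 52.1% of the family's FPKM in a library. By mean FPKM, ins-7 lay at percentile 62 of the 14564 genes tested and ins-25, the lowest measured member, at percentile 4.49. In all, 10 members averaged between 10 and 50 FPKM, 20 averaged between 1 and 10 FPKM, and ins-25 averaged 0.962 FPKM.

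The known agonist genes spanned a wide range of levels. In wild type on BW25113 ins-7 stood at 24.1 and 26.4 FPKM, ins-6 at 5.88 and 6.45 FPKM, daf-28 at 7.96 and 2.27 FPKM and ins-4 at 5.09 and 2.44 FPKM. The antagonist genes ins-17, ins-18 and ins-1 stood at 16.4 and 13.7 FPKM, 13 and 10.4 FPKM, and 8.94 and 6.29 FPKM in the same group. Ordered by their mean in that group, the 31 members formed 30 neighbouring pairs, and the values of 27 pairs overlapped, so most of the order lay within the replicate spread. The pairs that did not overlap were ins-7 over ins-27, ins-18 over ins-24, and ins-32 over ins-11.

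**Figure D1:**
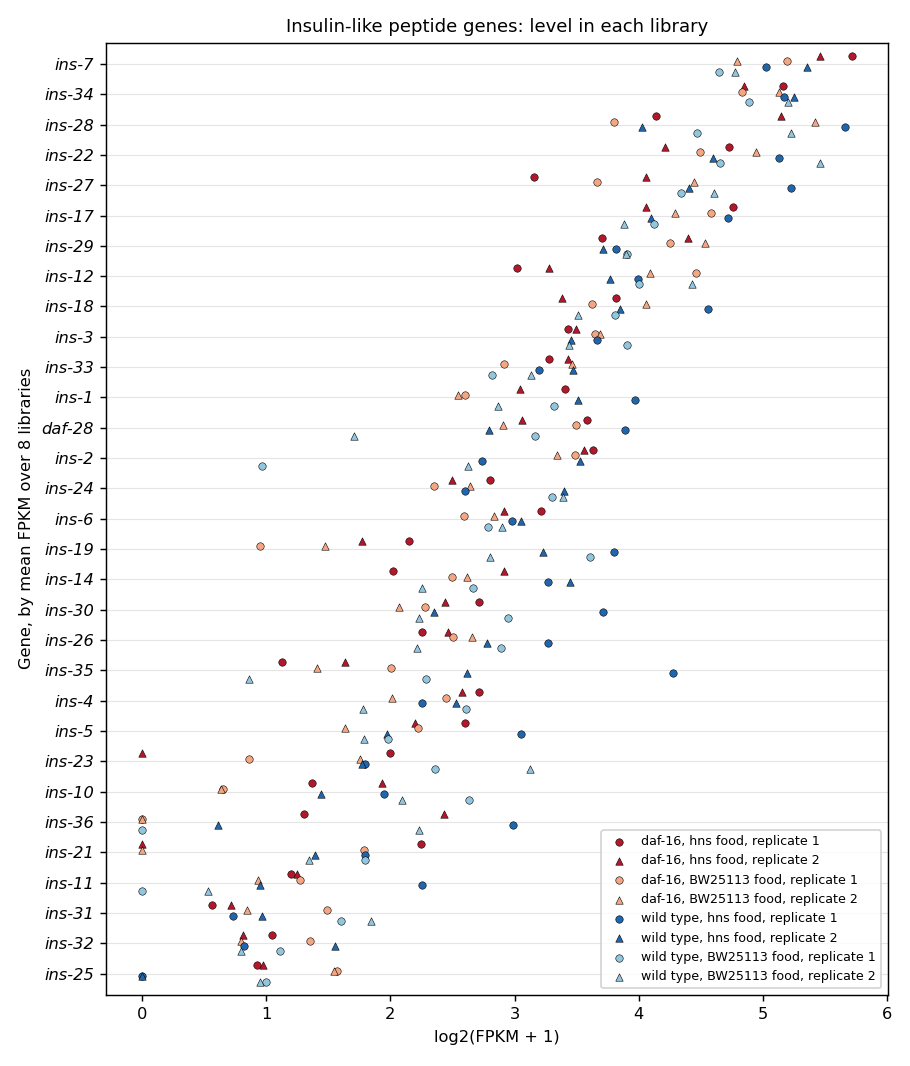
Level of each of the 31 measured insulin-like peptide genes in the 8 libraries, as log2(FPKM + 1), ordered from the highest mean at the top to the lowest; colours give the group, circles replicate 1 and triangles replicate 2. The 34.8 FPKM average of ins-7 stands at the top, most groups overlap within a gene, and the low values of ins-19 in daf-16 mutants, of ins-10 in daf-16 mutants on BW25113 and of ins-12 in daf-16 mutants on hns food lie apart from the other groups.

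The 9 members that were not measured were ins-8, ins-9, ins-13, ins-15, ins-16, ins-20, ins-37, ins-38 and ins-39. The rows of ins-38 and ins-39 were listed at 0 in every library. The highest value among the other 7 was 2.05 FPKM, for ins-20 in replicate 1 of daf-16 mutants on hns food. Among the low rows ins-9 stood at 0.23 and 0.242 FPKM in daf-16 mutants on hns food, 0.999 and 0.949 FPKM in daf-16 mutants on BW25113, and 0 and 0 FPKM in wild type on hns food, against 0.249 and 0 FPKM in wild type on BW25113. The gene ins-37 had values from 0.403 to 1.12 FPKM and was above 0 in every library. An exact 0 in this kind of table can be a failed estimate, and none of the 9 entered a test.

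Many members are neighbours in the genome. By the WBcel235 annotation, 24 members formed 7 clusters in which successive members have at most 2 other protein-coding genes between them. The largest cluster, on chromosome I, holds ins-24 to ins-30, and its members ranged from a mean of 0.962 FPKM for ins-25 to 28.5 FPKM for ins-28. The cluster of ins-2 to ins-6 with ins-20, on chromosome II, ranged from 0.648 FPKM for ins-20 to 11.1 FPKM for ins-3. Neighbours thus differed widely in level. The neighbouring genes ins-7 and ins-8 averaged 34.8 and 0.22 FPKM.

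Transcripts of the family are short, and few fragments covered many of them. The longest annotated transcript of a measured member was 295 to 856 nt long, with a median of 395 nt, against 1154 nt over 17875 protein-coding genes of the table. With 200 nt taken off for an assumed mean fragment length, 1 fragment of a member was worth 0.0605 to 0.418 FPKM. A measured member was then covered by a median of about 52.9 fragments per library, from 3.14 for ins-32 to 253 for ins-34. Only approximate, since the lengths come from a later annotation than the authors' build, these depths put ins-11, ins-21, ins-25 and ins-32 under 10 fragments per library.

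The spread between replicates was larger than for most genes. The median within-group SD on the log2(FPKM + 1) scale was 0.351 for members and 0.13 for all tested genes, or 0.179 for the 8371 tested genes within the members' range of mean FPKM. Of 31 members, 29 lay above the median spread of tested genes of similar level and 23 above the upper quartile. Among abundant members ins-28 spread most, with 16.6 and 34.3 FPKM in daf-16 mutants on hns food and 12.9 and 41.7 FPKM in daf-16 mutants on BW25113, against 49.7 and 15.3 FPKM in wild type on hns food and 21.1 and 36.4 FPKM in wild type on BW25113. The 4 groups of ins-28 overlapped in full, and its food effect averaged over genotypes had a 95% interval of -1.25 to 1.28 (log2). The agonist gene ins-6 and ins-25 had less spread than the median gene of their level. Spread and coverage did not run together in every member, as ins-28 had about 109 fragments per library and an SD of 0.928, and ins-25 about 4.37 fragments and an SD of 0.03.

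**Figure D2:**
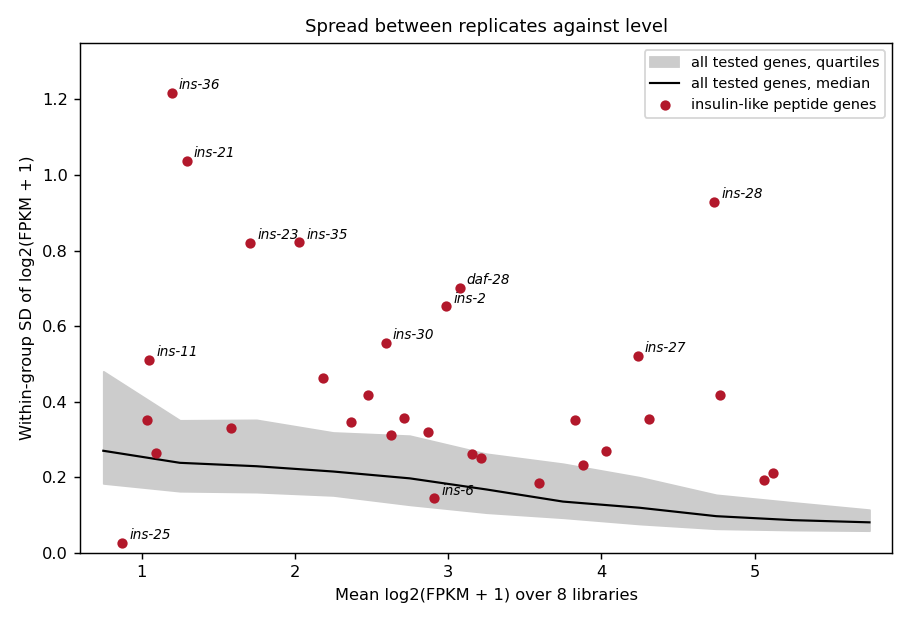
Within-group SD of log2(FPKM + 1) against mean log2(FPKM + 1) for the 31 measured members (red points), with the median (line) and quartiles (grey band) of all tested genes in bins of level. Of the 31 members 29 lie above the line, ins-28 stands far above genes of similar level, and ins-6 and ins-25 lie below the line.

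The replicate number itself moved with some members. Replicate 1 exceeded replicate 2 in all 4 groups for daf-28, ins-1, ins-5, ins-17, ins-21 and ins-30, which is 6 of 31 members, or 19.4%, against 15.4% of all tested genes. Replicate 2 exceeded replicate 1 in all 4 groups for ins-33 alone, which is 3.23% of members, against 17.4% of all tested genes. The agonist gene daf-28, made in sensory neurons, gave 11 and 7.36 FPKM in daf-16 mutants on hns food and 10.3 and 6.48 FPKM in daf-16 mutants on BW25113, against 13.8 and 5.93 FPKM in wild type on hns food and 7.96 and 2.27 FPKM in wild type on BW25113. Within each genotype and on each food, its replicates lay further apart than the means of the groups compared. Of 12 neuron markers, 9 were higher in replicate 1 in all 4 groups and 0 were higher in replicate 2 in all 4, and their part in the spread of the peptide genes was not tested.

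On hns food 0 of 31 members passed the limma threshold (adjusted p under 0.05 over all 14564 genes) in either genotype taken alone. In daf-16 mutants 17 members lay above 0 and 14 below, with a median log2 fold change of 0.03, against -0.01 over all genes. Leaving out replicate 2 of daf-16 mutants on hns food gave 19 to 12 and a median of 0.18, and leaving out replicate 2 of daf-16 mutants on BW25113 gave 15 to 16 and a median of -0.02. In wild type 22 members lay above 0 and 9 below, with a median of 0.31, against 0.00 over all genes. Without replicate 1 of wild type on hns food the split was 18 to 13 and the median 0.09, and without replicate 2 of wild type on BW25113 it was 20 to 11 with a median of 0.21. Over all genes tested the limma calls were 0.199% higher and 0.206% lower in daf-16 mutants, and 0.645% higher and 0.227% lower in wild type. At an unadjusted p under 0.05, 3 members were higher and 2 lower in daf-16 mutants (3.71% and 2.79% of all genes). Groups that did not overlap and differed by at least 1.5-fold in mean were found for 5 higher and 3 lower members in daf-16 mutants (4.42% and 3.27% of all genes). In wild type 6 were higher and 2 lower (11.2% and 4.46% of all genes), and 6 higher and 4 lower members met the 1.5-fold rule (12.2% and 1.94% of all genes). The median unadjusted 95% interval of a member reached 0.72 on the log2 scale to either side, and larger differences also missed the adjusted threshold.

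Neuron markers mostly lay above 0 on hns food. Of 12 such markers 12 lay above 0 in daf-16 mutants, with a median of 0.22, and 11 in wild type, with a median of 0.28, and 0 passed in either. Their summed level was 645 to 703 FPKM in daf-16 mutants on hns food, against 629 to 656 FPKM in daf-16 mutants on BW25113. In wild type it was 668 to 784 FPKM with hns food, against 647 to 718 FPKM on BW25113 food, and in both genotypes the groups overlapped. Of these markers 0 were listed at 0 throughout, and their part in the peptide genes' values was not tested. Markers of several other tissues also had values away from 0 on hns food. Of 7 hypodermis and cuticle markers 5 lay above 0 in daf-16 mutants, with a median of 0.26 and 0 passing, and 5 in wild type, with a median of 0.75 and 2 passing, and 3 passed in the average. Their summed level was 1690 to 1790 FPKM in daf-16 mutants on hns food, against 1260 to 2020 FPKM in daf-16 mutants on BW25113, and in wild type 944 to 1680 FPKM with hns food, against 1020 to 1280 FPKM with BW25113 food. The 5 tested markers of ciliated sensory neurons had medians of 0.11 in daf-16 mutants and 0.53 in wild type, and 0 passed. Of 7 embryo and L1 markers 0 passed in daf-16 mutants and 2 passed, higher, in wild type, with medians of 0.01 and 0.03. Germline markers lay below 0, 7 of 8 in daf-16 mutants and 8 of 8 in wild type, with medians of -0.09 and -0.15. Of 7 sperm markers 1 lay above 0 in daf-16 mutants and 2 in wild type, with medians of -0.49 and -0.08. The summed sperm level in daf-16 mutants was 16.2 to 20.5 FPKM on hns food, against 23.2 to 36.8 FPKM on BW25113 food. In wild type it was 14.1 to 19.8 FPKM against 20.9 to 24.2 FPKM, without overlap in either genotype. Of 8 body wall muscle markers 6 and 7 lay above 0, with medians of 0.09 and 0.17, and 1 passed, higher, in the average. Of 9 intestine markers 5 and 6 lay above 0, with medians of 0.08 and 0.22. The summed intestine level in daf-16 mutants was 5250 to 5300 FPKM on hns food, against 5000 to 5020 FPKM on BW25113 food. In wild type it was 5220 to 5390 FPKM against 5110 to 5120 FPKM, without overlap in either genotype. Germline sums and embryo and L1 sums were lower on hns food without overlap in wild type only. Sums of the body wall muscle and ciliated sensory neuron lists overlapped in both genotypes. The part of these tissues in the peptide genes' values was not tested either.

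**Figure D3:**
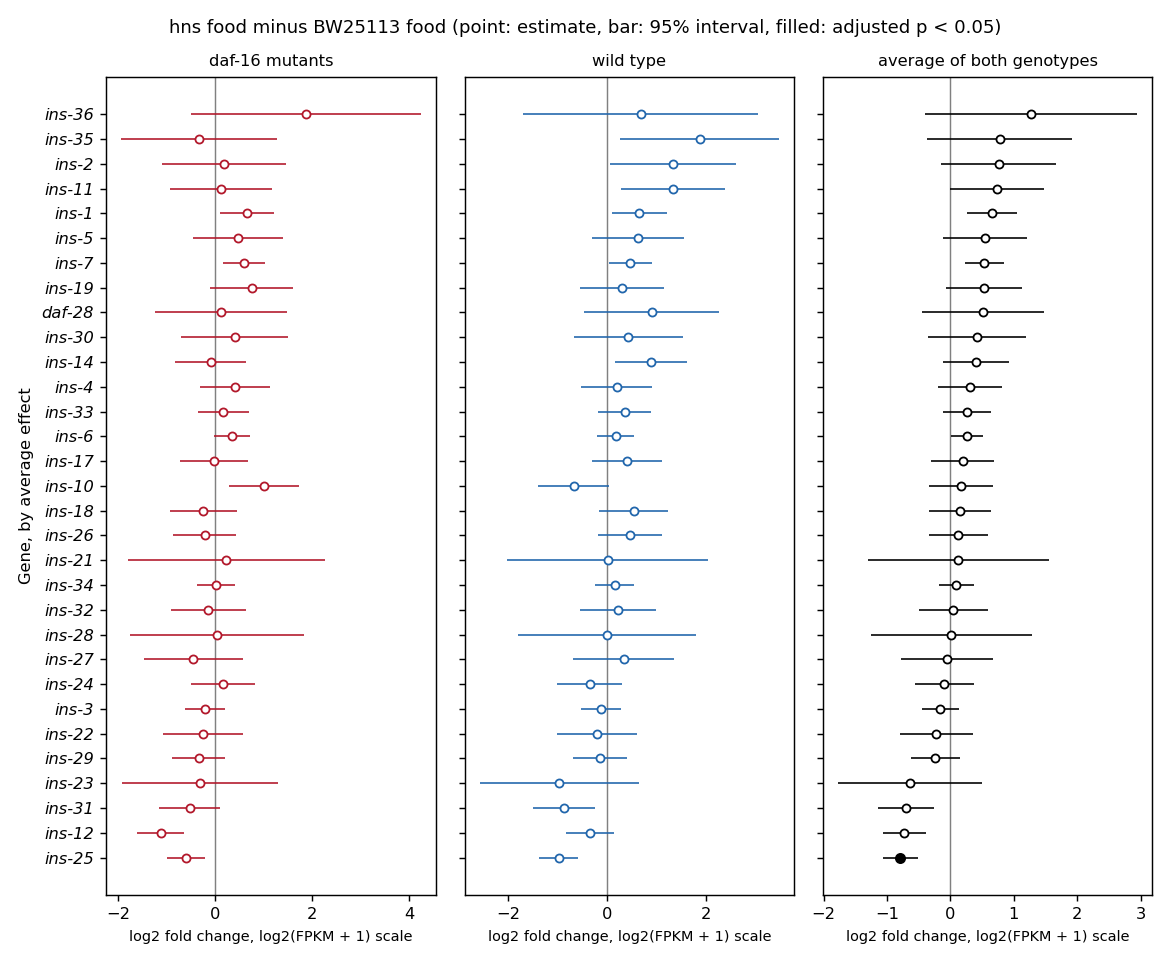
Effect of hns food minus BW25113 food on the 31 measured members in daf-16 mutants (left), in wild type (middle) and averaged over both genotypes (right), as limma log2 fold changes on the log2(FPKM + 1) scale with 95% intervals; filled points passed an adjusted p of 0.05. The panels have different x ranges; 0 members passed in a single genotype and ins-25 passed in the average, at -0.79.

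Averaging the food effect over both genotypes, which sets 4 libraries against 4, left 1 member past the threshold. Transcripts of ins-25 fell by 0.79 ± 0.11 on the log2 scale (SE; limma adjusted p = 0.0349, with 0.515% of all genes called lower). It stood at 0.903 and 0.97 FPKM in daf-16 mutants on hns food, against 1.97 and 1.92 FPKM in daf-16 mutants on BW25113. In wild type it was listed at 0 and 0 FPKM with hns food, against 1 and 0.928 FPKM on BW25113 food. The groups did not overlap in either genotype. All 6 values above 0 lay either between 0.903 and 1 FPKM or between 1.92 and 1.97 FPKM, with none between, and amounted to at most about 9.15 fragments in a library. It reached the 1 FPKM minimum in BW25113 libraries only, so it was tested through the food on which it was high, and its direction was in part set by that rule. Without any filter its average food effect had a limma adjusted p of 0.008, from the same library values. Both p-values rest in part on the within-group SD of ins-25, 0.0271, which lay at percentile 0.68 of all tested genes. At an unadjusted p under 0.05 the average held 3 higher and 3 lower members (12.4% and 6.66% of all genes), and 0 members were called higher, against 1.24% of all genes. For ins-25 the food effect in wild type alone had an adjusted p of 0.0603, and the average effect missed the threshold whichever of the 8 libraries was left out (limma adjusted p = 0.0819 to 0.127), where 78 to 162 genes passed in all, against 256 with all libraries.

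In both genotypes 4 of 31 members had higher values on hns food with groups that did not overlap, ins-1, ins-2, ins-6 and ins-7. Over all tested genes the share was similar, at 11.1%. For ins-2 the means were 1.15-fold apart in the mutant and 2.63-fold in wild type. Its average food effect was 0.76 ± 0.37 (SE; limma adjusted p = 0.315). The antagonist gene ins-1 stood at 9.62 and 7.24 FPKM in daf-16 mutants on hns food, against 5.07 and 4.84 FPKM in daf-16 mutants on BW25113. In wild type it stood at 14.7 and 10.4 FPKM with hns food, against 8.94 and 6.29 FPKM on BW25113 food. Its means were 1.7-fold and 1.65-fold apart in the mutant and in wild type, and the fitted differences were 0.65 ± 0.23 in each (SE; limma adjusted p = 0.667 and 0.256). In wild type the difference was 0.43 without replicate 1 of the hns group or without replicate 2 of the BW25113 group. The average food effect of 0.65 ± 0.16 had a 95% interval of 0.26 to 1.04 and missed the threshold (limma adjusted p = 0.114). It passed with the replicate number as a block (adjusted p = 0.0293), a fit that raised the calls over all genes to 796, against 256.

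The agonist gene ins-7 stood at 51.6 and 42.9 FPKM in daf-16 mutants on hns food, against 35.6 and 26.6 FPKM in daf-16 mutants on BW25113. In wild type it stood at 31.6 and 39.8 FPKM with hns food, against 24.1 and 26.4 FPKM on BW25113 food. All libraries on hns food thus lay above those on BW25113 food of the same genotype. The average food effect of 0.54 ± 0.13 (SE) had a 95% interval of 0.23 to 0.84 and missed the threshold (limma adjusted p = 0.101). For ins-6, an agonist gene of sensory neurons, the values were 8.27 and 6.52 FPKM in daf-16 mutants on hns food, against 5.04 and 6.14 FPKM on BW25113 food, and 6.9 and 7.29 FPKM in wild type on hns food, against 5.88 and 6.45 FPKM on BW25113 food. Its average food effect was the smallest of these 4, at 0.26 ± 0.11 (limma adjusted p = 0.26). The other agonist genes gave average food effects of 0.31 ± 0.21 for ins-4 and 0.51 ± 0.4 for daf-28 (SE; limma adjusted p = 0.425 and 0.469), both with groups that overlapped in wild type.

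Lower values on hns food in both genotypes, with groups that did not overlap, were found for 3 of 31 members, ins-12, ins-25 and ins-31. Over all tested genes the share was 7.08%. Like ins-25, ins-31 reached 1 FPKM in BW25113 libraries only, so for these 2 members the direction was in part set by the filter. For ins-12 the values were 7.12 and 8.68 FPKM in daf-16 mutants on hns food, against 21 and 16 FPKM in daf-16 mutants on BW25113. In wild type they were 14.9 and 12.6 FPKM with hns food, against 15 and 20.5 FPKM on BW25113 food, and here the groups were adjacent. The mutant's mean was 2.35-fold lower on hns food (log2 fold change -1.13 ± 0.20 SE, limma adjusted p = 0.152). The average food effect of -0.73 ± 0.14 had a 95% interval of -1.07 to -0.39 (limma adjusted p = 0.0668), and it passed with robust estimation of the spread (adjusted p = 0.0485) and without genes listed at 0 in any library (adjusted p = 0.0376). The genotypes' food effects on ins-12 differed by 0.80 ± 0.28 (wild type minus daf-16, limma adjusted p = 1). For ins-31 the values were 0.476 and 0.646 FPKM in daf-16 mutants on hns food, against 1.81 and 0.794 FPKM on BW25113 food, and 0.661 and 0.951 FPKM in wild type on hns food, against 2.04 and 2.58 FPKM on BW25113 food. Its average food effect of -0.70 ± 0.18 missed the threshold (limma adjusted p = 0.126).

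Other members stood apart between the foods in wild type only in value, and the difference between the genotypes did not pass for any of them (interaction, limma adjusted p = 1 for all 31 members). The gene ins-35, whose product is known from the intestine, had 18.4 and 5.15 FPKM in wild type on hns food, against 3.89 and 0.821 FPKM on BW25113 food. In daf-16 mutants it had 1.19 and 2.11 FPKM with hns food, against 3.02 and 1.66 FPKM on BW25113 food. Its wild-type means were 5.01-fold apart, with replicate 1 far above replicate 2 in both wild-type groups (log2 fold change 1.87 ± 0.67 SE, limma adjusted p = 0.265). Leaving out 1 wild-type library moved the ratio of means to between 2.19-fold, without replicate 1 on hns food, and 14.4-fold, without replicate 1 on BW25113 food. The gene ins-11 is an intestinal and neuronal gene known to respond to pathogenic bacteria. Its values were 3.76 and 0.937 FPKM in wild type on hns food, against 0 and 0.448 FPKM on BW25113 food. The wild-type food effect on ins-11 was 1.33 ± 0.43 (SE, limma adjusted p = 0.235). It reached the 1 FPKM minimum in 3 hns libraries and 1 BW25113 library, so its direction was in part set by the filter. In wild type it had about 18.6 and 4.31 fragments on hns food, against 0 and 2.1 on BW25113 food. In daf-16 mutants ins-11 had 1.3 and 1.38 FPKM on hns food and 1.41 and 0.907 FPKM on BW25113 food. The gene ins-14 had 8.65 and 9.87 FPKM in wild type on hns food, against 5.36 and 3.77 FPKM on BW25113 food (log2 fold change 0.90 ± 0.30 SE, limma adjusted p = 0.245). In daf-16 mutants ins-14 had 3.05 and 6.52 FPKM with hns food, against 4.65 and 5.14 FPKM on BW25113 food, and these groups overlapped. The antagonist gene ins-18 had 22.5 and 13.4 FPKM in wild type on hns food, against 13 and 10.4 FPKM on BW25113 food. In daf-16 mutants ins-18 had 13.1 and 9.42 FPKM with hns food, against 11.3 and 15.7 FPKM on BW25113 food.

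Only ins-10 pointed in opposite directions in the 2 genotypes with groups that did not overlap in either. It stood at 1.58 and 2.81 FPKM in daf-16 mutants on hns food, against 0.573 and 0.554 FPKM in daf-16 mutants on BW25113. In wild type it stood at 2.87 and 1.71 FPKM with hns food, against 5.19 and 3.26 FPKM on BW25113 food. The mutant's mean was 3.89-fold higher on hns food and the wild type's 1.85-fold lower, with log2 fold changes of 1.00 ± 0.30 and -0.67 ± 0.30 (SE; limma adjusted p = 0.551 and 0.342). The interaction, the food effect in wild type minus that in daf-16, was -1.67 ± 0.42 with an unadjusted p of 0.00649 and a limma adjusted p of 1. At an unadjusted p under 0.05 the interaction held ins-12 above 0 and ins-10 below 0 (2.9% and 0.803% of all genes), and 0 members passed the adjusted threshold (0.0412% and 0.0549% of all genes).

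Loss of daf-16 gave 0 of 31 members past the threshold on either food taken alone. On hns food 9 members lay above 0 and 22 below, with a median of -0.21, against 0.00 over all genes. Without replicate 1 of wild type on hns food the split was 15 to 16 and the median -0.12, whereas without replicate 2 of that group the split was 9 to 22 and the median -0.65. Leaving out replicate 1 or replicate 2 of daf-16 mutants on hns food gave medians of -0.35 and -0.14. On BW25113 food 16 lay above 0 and 15 below, with a median of 0.03, against 0.01 over all genes, and medians of -0.05 to 0.05 when 1 library was left out. Over all genes the limma calls were 0.165% higher and 0.0687% lower on hns food, and 0.151% higher and 0.11% lower on BW25113 food. At an unadjusted p under 0.05, 1 member was higher and 6 lower on hns food (4.62% and 3.22% of all genes), and 1 higher and 7 lower members met the 1.5-fold rule with groups that did not overlap (3.52% and 5.52% of all genes). On BW25113 food 2 were higher and 3 lower (6.55% and 2.57% of all genes), and 3 higher and 6 lower met the 1.5-fold rule (7.28% and 2.22% of all genes). Neuron markers lay lower in the mutants, 9 of 12 below 0 on hns food with a median of -0.31 and 10 of 12 on BW25113 food with a median of -0.16. Body wall muscle markers lay above 0, 6 of 8 on hns food with a median of 0.20 and 8 of 8 on BW25113 food with a median of 0.30. Their summed level on hns food was 2280 to 2330 FPKM in daf-16 mutants, against 1870 to 1970 FPKM in wild type. With BW25113 food it was 1990 to 2670 FPKM against 1810 to 1910 FPKM, so the groups did not overlap on either food. Hypodermis and cuticle markers lay above 0 for 3 of 7 on hns food, with a median of -0.05, and 6 of 7 on BW25113 food, with a median of 0.67. Sperm markers lay above 0 for 5 of 7 on hns food (median 0.15) and 6 of 7 on BW25113 food (median 0.41). Intestine markers lay above 0 for 2 of 9 (median -0.02) and 7 of 9 (median 0.05). On hns and BW25113 food the medians were -0.05 and 0.23 for ciliated sensory neuron markers and -0.01 and -0.03 for germline markers. For embryo and L1 markers they were -0.03 and -0.01. In all these lists 0 markers passed for genotype, and their part in the peptide genes' values was not tested.

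**Figure D4:**
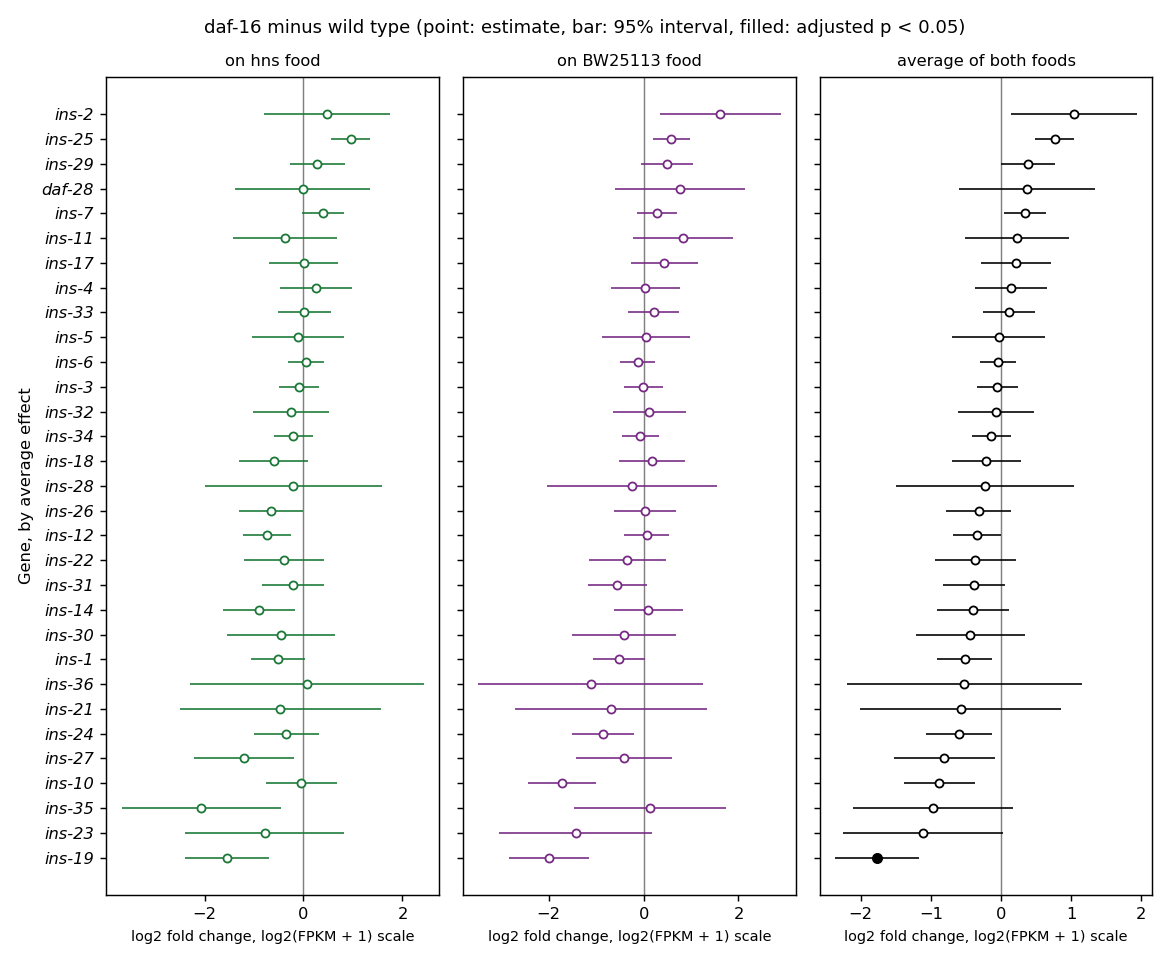
Effect of genotype, daf-16 minus wild type, on the 31 measured members on hns food (left), on BW25113 food (middle) and averaged over both foods (right), as limma log2 fold changes on the log2(FPKM + 1) scale with 95% intervals; filled points passed an adjusted p of 0.05. The panels have different x ranges; ins-19 passed in the average at -1.77, and ins-25 missed the threshold at 0.77.

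The member that passed for genotype was ins-19, in the effect averaged over both foods. It fell by 1.77 ± 0.25 on the log2 scale in daf-16 mutants (SE; limma adjusted p = 0.0417, with 0.268% of all genes called lower), with a 95% interval of -2.37 to -1.17. On hns food it stood at 3.44 and 2.42 FPKM in daf-16 mutants, against 12.9 and 8.4 FPKM in wild type. With BW25113 food it stood at 0.934 and 1.78 FPKM in daf-16 mutants, against 11.2 and 5.96 FPKM in wild type. All 4 mutant libraries thus lay below all 4 wild-type libraries, and the mutant means were 3.64-fold and 6.31-fold lower on hns and BW25113 food. At an unadjusted p under 0.05 the average held 3 higher and 5 lower members (8.54% and 4.41% of all genes), and 0 were called higher, against 0.563% of all genes. For ins-19 each food alone missed the threshold (limma adjusted p = 0.287 and 0.138). The average effect missed the threshold whichever of the 8 libraries was left out (limma adjusted p = 0.0561 to 0.152; 47 to 103 genes passed in all, against 121 with all libraries), and also without a filter on low values (limma adjusted p = 0.0842).

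The values of ins-25 were higher in the mutant on both foods, 0.903 and 0.97 against 0 and 0 FPKM on hns food and 1.97 and 1.92 against 1 and 0.928 FPKM on BW25113 food (daf-16 mutants against wild type). Its average genotype effect of 0.77 ± 0.11 (SE) had a limma adjusted p of 0.0502, which rests in part on the same small spread between duplicates. The 1 FPKM minimum was reached in 2 daf-16 libraries and 1 wild-type library, too few for a test on wild-type values alone. For genotype too, the direction of ins-25 was thus in part set by the filter. Groups that did not overlap on both foods, with higher values in the mutant, were found for 3 of 31 members, ins-2, ins-7 and ins-25. Over all tested genes the share was 7.9%. For ins-7 the values were 51.6 and 42.9 FPKM in daf-16 mutants, against 31.6 and 39.8 FPKM in wild type, on hns food, and 35.6 and 26.6 FPKM in daf-16 mutants, against 24.1 and 26.4 FPKM in wild type, with BW25113 food. The average genotype effect on ins-7 was 0.34 ± 0.13 (SE), with a 95% interval of 0.04 to 0.64 and a limma adjusted p of 0.328. On BW25113 food its nearest libraries of the 2 genotypes, at 26.6 and 26.4 FPKM, were nearly equal.

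The gene ins-2 was steady in the mutant and uneven in wild type. It had 11.4 and 10.8 FPKM in daf-16 mutants, against 5.67 and 10.5 FPKM in wild type, on hns food, and 10.2 and 9.13 FPKM in daf-16 mutants, against 0.955 and 5.18 FPKM in wild type, with BW25113 food. Its average genotype effect of 1.04 ± 0.37 (SE) missed the threshold (limma adjusted p = 0.314), with wild-type replicate 1 lower than replicate 2 on both foods. Without replicate 1 of wild type on BW25113 the effect was 0.63.

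Lower values in the mutant with groups that did not overlap on both foods were found for 3 of 31 members, ins-1, ins-19 and ins-31. Over all tested genes the share was 5.07%. Of these members, ins-31 reached the 1 FPKM minimum in 2 wild-type libraries and 1 daf-16 library. Its direction was thus in part set by the filter. On hns food its nearest libraries of the 2 genotypes, at 0.646 and 0.661 FPKM, were nearly equal. The average genotype effect on ins-31 was -0.38 ± 0.18 (SE, limma adjusted p = 0.456). The antagonist gene ins-1 had 9.62 and 7.24 FPKM in daf-16 mutants, against 14.7 and 10.4 FPKM in wild type, on hns food, and 5.07 and 4.84 FPKM in daf-16 mutants, against 8.94 and 6.29 FPKM in wild type, with BW25113 food. Its average genotype effect was -0.52 ± 0.16 (SE; limma adjusted p = 0.256). For ins-10 the genotypes differed in value on BW25113 food, where the mutant mean was 7.5-fold lower, 0.563 against 4.22 FPKM in wild type (log2 fold change -1.72 ± 0.30 SE, limma adjusted p = 0.133). On hns food the means of ins-10 were 2.19 FPKM in daf-16 mutants and 2.29 FPKM in wild type, and the groups overlapped.

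The gene ins-24 had 4.1 and 5.23 FPKM in daf-16 mutants on BW25113, against 8.88 and 9.46 FPKM in wild type, a 1.97-fold lower mean (log2 fold change -0.85 ± 0.27 SE, limma adjusted p = 0.397). On hns food ins-24 had 5.97 and 4.65 FPKM in daf-16 mutants, against 5.07 and 9.54 FPKM in wild type, and replicate 1 of wild type lay among the mutant values. Further members had lower values in the mutant on hns food. They were ins-12 at 7.12 and 8.68 against 14.9 and 12.6 FPKM, ins-27 at 7.91 and 15.7 against 36.4 and 20.2 FPKM, and ins-26 at 3.77 and 4.53 against 8.64 and 5.84 FPKM (daf-16 mutants against wild type; limma adjusted p = 0.392, 0.548 and 0.63). The groups of these genes did not overlap on hns food, whereas on BW25113 food the groups of each of the 3 overlapped.

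**Figure D5:**
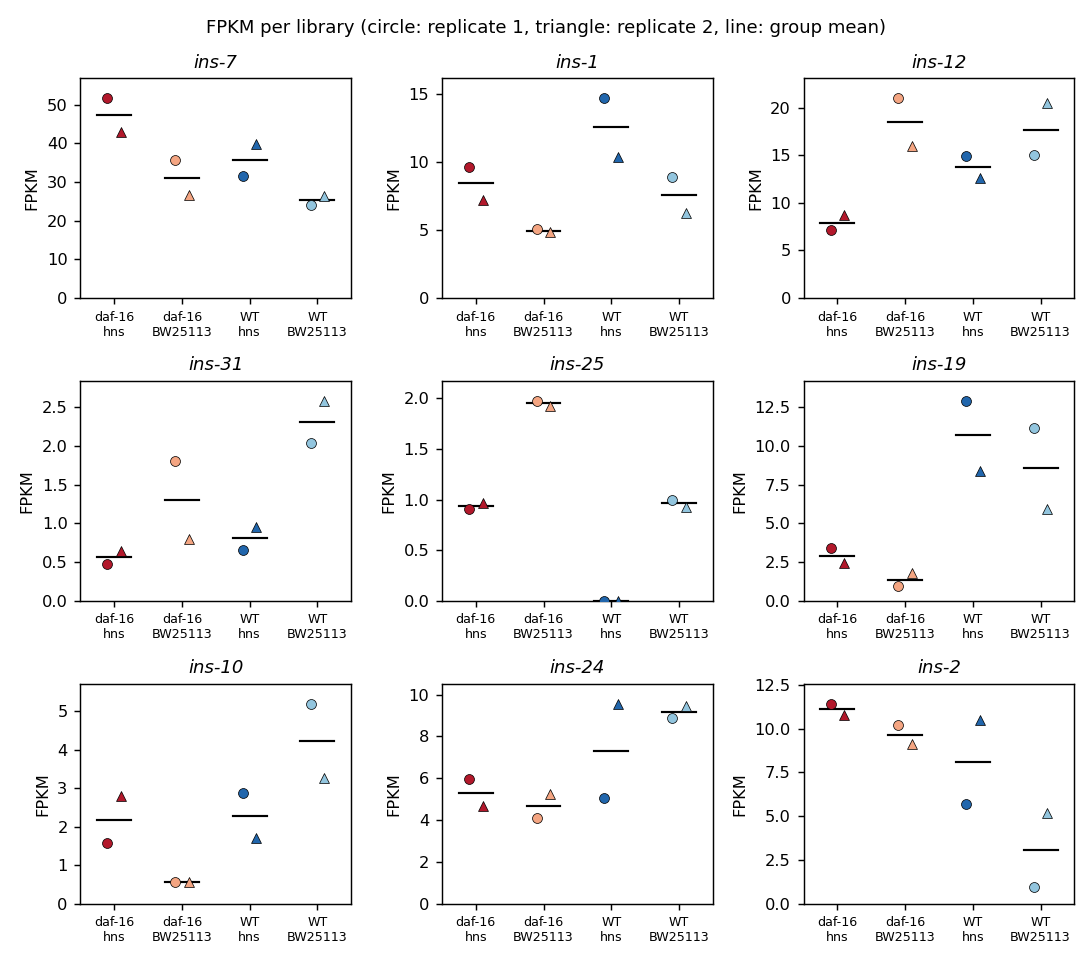
FPKM in each library of 9 members discussed in the text, with daf-16 mutants left of wild type and hns food left of BW25113 food; circles are replicate 1, triangles replicate 2 and lines group means, and every y axis starts at 0. All 4 mutant libraries of ins-19 lie at or below 3.44 FPKM against at least 5.96 FPKM in wild type, ins-12 is lowest in daf-16 mutants on hns food, and ins-25 takes values near 0, 1 and 2 FPKM only.

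On hns food ins-35 had 1.19 and 2.11 FPKM in daf-16 mutants, against 18.4 and 5.15 FPKM in wild type, a 7.16-fold lower mean (limma adjusted p = 0.502). Without replicate 1 of wild type the mean was 3.12-fold lower, and without replicate 2 of wild type 11.2-fold lower. The values of ins-14 and ins-18 given above were also lower in the mutant on hns food without overlap, with means 1.94-fold and 1.59-fold lower (limma adjusted p = 0.535 and 0.697). With 1 library left out the ratio was 1.42-fold to 3.04-fold for ins-14, the extremes without replicate 1 and replicate 2 of the mutant, and 1.19-fold, without replicate 1 of wild type, to 2-fold, without its replicate 2, for ins-18. On BW25113 food the groups of all 3 genes overlapped.

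Among members of low level, ins-23 had 3 and 0 FPKM in daf-16 mutants on hns food and 0.817 and 2.38 FPKM in daf-16 mutants on BW25113, against 2.47 and 2.42 FPKM in wild type on hns food and 4.13 and 7.7 FPKM in wild type on BW25113. Its wild-type values on BW25113 lay above all others. The gene ins-36 had 1.47 and 4.38 FPKM in daf-16 mutants on hns food and was listed at 0 and 0 FPKM in daf-16 mutants on BW25113, against 6.92 and 0.531 FPKM in wild type on hns food and 0 and 3.7 FPKM in wild type on BW25113. Both genes had at least 1 library listed at 0, as had ins-11, ins-21 and ins-25, and ins-23 and ins-36 did not pass in any comparison. For ins-21 and ins-32, also low, the values ranged from 0 to 3.74 FPKM and from 0.738 to 1.93 FPKM.

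Other abundant members had average effects with intervals that include 0. The second most abundant, ins-34, had values of 27.5 to 37.1 FPKM over all 8 libraries, with an average food effect of 0.09 (95% interval -0.18 to 0.37, log2) and an average genotype effect of -0.14 (-0.42 to 0.14). The agonist-like gene ins-3 had values of 9.76 to 14 FPKM, with an average food effect of -0.16 (-0.45 to 0.13) and an average genotype effect of -0.05 (-0.34 to 0.24). For the antagonist gene ins-17 the average food effect was 0.19 (-0.31 to 0.69) and the average genotype effect 0.22 (-0.28 to 0.72). On BW25113 food ins-17 had 22.9 and 18.6 FPKM in daf-16 mutants, against 16.4 and 13.7 FPKM in wild type, without overlap (1.38-fold, limma adjusted p = 0.728). The abundant gene ins-22 had 25.4 and 17.5 FPKM in daf-16 mutants on hns food and 21.5 and 29.8 FPKM in daf-16 mutants on BW25113, against 33.9 and 23.2 FPKM in wild type on hns food and 24.2 and 43.1 FPKM in wild type on BW25113, and its groups overlapped in part. For ins-29, the mutant values were 12 and 20.1 FPKM on hns food and 18 and 22.2 FPKM on BW25113, against 13.1 and 12.1 FPKM in wild type on hns food and 14 and 13.9 FPKM in wild type on BW25113. The ins-29 mutant mean on BW25113 food was 1.44-fold higher, without overlap (limma adjusted p = 0.601; average genotype effect 0.38, adjusted p = 0.392). The remaining members, ins-33, ins-30 and ins-5, ranged from 6.05 to 10.1 FPKM, from 3.2 to 12.1 FPKM and from 2.11 to 7.28 FPKM over the 8 libraries.

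Downstream of the peptides, 17 genes of the insulin signalling pathway, among them the receptor gene daf-2, the kinase genes age-1, akt-1 and akt-2 and the phosphatase gene daf-18, were all tested. In the food effect 0 of 17 passed in daf-16 mutants, in wild type or on average. For genotype only daf-16 itself passed, lower on both foods (limma adjusted p = 0.00032 on hns food and 0.000516 on BW25113 food), and akt-2 came next in the average (log2 fold change -0.60 ± 0.09 SE, adjusted p = 0.0513). The receptor gene daf-2 stayed between 20 and 24.4 FPKM in all 8 libraries. Of 14 genes of peptide processing and release, such as the prohormone convertase genes egl-3 and kpc-1 and the carboxypeptidase gene egl-21, 0 passed in any of the 7 comparisons. They lay mostly above 0 on hns food, 12 of 14 in daf-16 mutants with a median of 0.14 and 11 of 14 in wild type with a median of 0.21. The neuron markers egl-3, sbt-1 and rab-3 also belong to this list. Of 10 tested genes of dauer TGF-beta and other endocrine signals, such as the ligand gene daf-7, 0 passed in any comparison. In the average genotype effect 1 of 17 pathway genes, 5 of 14 processing genes and 0 of 10 endocrine genes lay above 0. The medians were -0.09, -0.14 and -0.13, and 50.5% of all genes lay above 0. The pathway genes below 0 include daf-16 itself, at -2.02, whose loss defines the mutants.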

How the data were processed

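The authors deposited FPKM, in 1 table of 8 mRNA libraries; the submitters' processing notes name Cufflinks 2.2.1, TopHat2 2.0.11 and the build ce10. Their annotation and strand setting were not given in the sources used here. FPKM were transformed to log2(FPKM + 1), which understates the change of low genes, and the 14564 genes reaching 1 FPKM in 2 or more of 8 libraries were fitted with limma 3.58.1 (R 4.3.3), with a mean for each of 4 groups, a mean-variance trend, 4 residual and 2.32 prior degrees of freedom. P-values are two-sided, adjusted by Benjamini-Hochberg over all genes tested, and 95% intervals come from the same fit. The fit gave 7 contrasts: food in each genotype, genotype on each food, the interaction, and the 2 averages. The script was tested on simulated data.

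Depth was matched on low FPKM values of genes with 1 transcript over 1000 nt; 54% to 56.5% lay within 0.15 of a whole fragment (30% if spread evenly; the depth giving the best match was taken), so no count test was run. Lengths and gene order came from WBcel235, another build, so no coordinates are given, and sequences and promoter motifs were not analysed here. The members, gene lists and tests were chosen with earlier results of these data known. Every measured member is given with values in the text or the plots; the text gives library values for members past the threshold, for those whose groups did not overlap and differed by 1.5-fold or more, and for others chosen after their values were seen. The marker opt-2 was not matched by name.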

Additional observations from a re-analysis of the deposited data

How the results depend on the processing

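All 41 combinations of a member and a comparison with an unadjusted limma p under 0.05 kept their direction in each of the 14 to 17 alternatives run for them. These combinations were picked by that p in the same libraries. Robust estimation, the replicate block and a fit of only the 4 libraries compared also leave the log2 fold change unchanged. The kept direction was thus largely set in advance. The count of members past the threshold depended on the processing. For the average food effect it was 1 (ins-25), with 0 under a filter of 5 FPKM, which removes ins-25, 2 with robust estimation (ins-12, ins-25; 339 genes in all, against 256), 2 with the replicate block (ins-1, ins-25; 796 genes) and 0 without each replicate in turn; without genes listed at 0 in any library, chosen after seeing the data, it was again 1, ins-12. For the average genotype effect it was 1 (ins-19), with 2 (ins-19, ins-25) at a pseudocount of 0.5 or 0.1, with robust estimation (157 genes in all, against 121) and with the replicate block (253 genes); without a filter it was again 1, but ins-25, higher in the mutant, while ins-19 missed the threshold; and 0 without each replicate in turn. For the food effect in wild type it was 0, with 1 (ins-25) at a pseudocount of 0.5 or 0.1, without a filter and with the replicate block. For the genotype effect on hns food it was 0, with 1 (ins-25) without a filter. The cause was not tested. Whether the replicate numbers pair the libraries is not known: differences of replicate 1 minus 2 correlated between groups with r of 0.0219 to 0.161 across all genes and -0.26 to 0.352 across members, while 15.4% and 17.4% of all genes were higher in replicate 1 or in replicate 2 in all 4 groups. Quantile normalization gave 18 of 31 members above 0 for food in wild type, against 22. For the average food effect it gave 17, also against 22. For genotype on BW25113 food it gave 12 with a median of -0.08, against 16 with a median of 0.03. The average genotype effect kept 9 above 0. Over all genes the replicate block raised the calls for food in wild type to 488, against 127. Members under 10 fragments per library, ins-25 among them, rest on the fewest fragments.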
